A study of Mus musculus with 11 samples.

Results

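Lcn2, Il6, Il6ra, Stat3, Socs3, Il1b, Saa3, Nfkbiz, Cxcl1 and Cxcl5 were followed as 10 genes of the interleukin-6 (IL-6), STAT3 and NF-kB branch of lung inflammation. They were taken by gene name from a transcript count table summed to 24515 genes, and 10 of 10 were found and passed the filter on low counts. The libraries hold RNA of 6 tumors of the lung and of 5 normal lungs next to them, from 5 mice. The 3 tumors tagged ADN came from mouse m335 at 4 months after NNK, mouse m368 at 6 months and mouse m350 at 7 months. The 3 tumors tagged ADC came from mouse m335 at 4 months and mice m372 and m378 at 7 months. The 5 normal lungs came from the same mice, and the 2 tumors of mouse m335 share its normal lung. Every mouse, including those that gave the normal lungs, was Gprc5a-/- and had received NNK, a nitrosamine of tobacco smoke, by intraperitoneal injection at 50 mg/kg, 3 times per week for 8 weeks. Wild-type and unexposed lungs were not analysed here. The labels do not spell out ADN and ADC, and the tags are used as given.

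IL-6 is a secreted cytokine that binds its receptor IL6RA together with the shared signalling chain gp130, the product of Il6st. The complex activates Janus kinases, which phosphorylate the transcription factor STAT3, and STAT3 induces Socs3, an inhibitor that shuts the receptor down. NF-kB, driven by IL-1 and TNF, induces Il6, and both factors act on acute phase genes such as Saa3 and Lcn2. In the lung these proteins are made by epithelium, macrophages and neutrophils during infection and injury. They were measured here as RNA, so phosphorylation of STAT3 was not observed.

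The 250 bases before the start of 4 members are shown because they hold matches to motifs of NF-kB, STAT, AP-1 or C/EBP factors, the last 2 being other families active at inflammation genes. They come from RefSeq (GRCm38.p6), where 8 of 10 members had an entry, and are written 5′ to 3′ on the strand of the gene. Positions count back from the start, with -1 the base just before it, and capitals mark the matches.
Lcn2: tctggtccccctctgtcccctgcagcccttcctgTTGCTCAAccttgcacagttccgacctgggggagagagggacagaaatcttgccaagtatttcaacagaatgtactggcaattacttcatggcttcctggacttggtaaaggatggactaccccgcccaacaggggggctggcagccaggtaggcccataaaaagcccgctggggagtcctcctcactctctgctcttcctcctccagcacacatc
Il6: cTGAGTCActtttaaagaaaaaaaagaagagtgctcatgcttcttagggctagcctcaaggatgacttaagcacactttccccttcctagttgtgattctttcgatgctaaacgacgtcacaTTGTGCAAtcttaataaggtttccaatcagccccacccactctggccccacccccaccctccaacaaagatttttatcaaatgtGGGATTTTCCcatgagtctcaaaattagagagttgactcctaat
Socs3: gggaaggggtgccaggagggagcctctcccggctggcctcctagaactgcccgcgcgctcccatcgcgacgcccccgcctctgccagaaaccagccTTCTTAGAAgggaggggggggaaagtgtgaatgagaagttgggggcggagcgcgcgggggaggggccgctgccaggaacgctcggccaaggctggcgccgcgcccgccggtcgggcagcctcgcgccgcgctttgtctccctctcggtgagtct
Cxcl1: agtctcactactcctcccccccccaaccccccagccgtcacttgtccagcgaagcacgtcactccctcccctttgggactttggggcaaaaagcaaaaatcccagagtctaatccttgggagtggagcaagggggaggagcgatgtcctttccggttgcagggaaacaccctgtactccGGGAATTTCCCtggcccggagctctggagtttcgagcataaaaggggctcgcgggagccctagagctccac

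The Lcn2 stretch (chr2:32387740-32387989, minus strand) holds a C/EBP match at -216 to -209. The Il6 stretch (chr5:30012864-30013113, plus strand) holds an AP-1 match at -249 to -243, a C/EBP match at -128 to -121 and a kappa-B match, the NF-kB motif, at -44 to -35. The Socs3 stretch (chr11:117969367-117969616, minus strand) holds a STAT match at -154 to -146. The Cxcl1 stretch (chr5:90890995-90891244, plus strand) holds a pair of overlapping kappa-B matches, from -71 to -62 and from -70 to -61. Saa3, not printed, has a C/EBP match at -99 to -92, and no match was found in these windows of Il6ra, Stat3 and Il1b. The motifs searched on both strands were the kappa-B consensus, STAT (TTCNNNGAA), AP-1 (TGANTCA) and C/EBP (TTGCNNAA). Among 32851 mouse promoter windows of the same length, 7.25% hold the kappa-B consensus, 7.02% the STAT motif, 6.75% the AP-1 motif and 9.56% the C/EBP motif.

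Total counts ranged from 19938822 to 46987587 per library, and Gprc5a had 0 to 19 counts in each, at most 0.64 CPM (counts per 1000000). Levels below are CPM on library sizes scaled by TMM. Log2 differences between a tumor and its own normal lung add a prior count of 2. In bulk tissue, fewer cells of a type and less RNA per cell cannot be told apart, and this touches every value below. Libraries of a group come from different mice. With the mouse as a block, p-values set a difference against the spread of these 11 libraries that is left after differences between mice are taken out. The expected counts carry no statement on strand, so reads of Stat3, Il6ra and Il1b may include those of genes on the opposite strand (Stat5a, Gm42809 and Il1bos, all listed there by GENCODE).

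Per kilobase of transcript, Lcn2 had the highest median level of the members over the 11 libraries, 949 CPM per kilobase, with a range of 418 to 2661. Stat3 and Socs3 followed at medians of 49.1 and 46.8 CPM per kilobase, and their ranges of 44.1 to 56.2 and 25.8 to 71.7 overlapped. Saa3 had a median of 23.1 CPM per kilobase but ran between 2.47 and 1567. Il1b, Nfkbiz, Il6ra, Cxcl1 and Cxcl5 had medians between 0.833 and 7.48 CPM per kilobase, with ranges that overlapped from each to the next. Il6 was lowest at a median of 0.4 CPM per kilobase, and its range overlapped that of Cxcl5.

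With tumors set against the normal lungs of the same mice, 0 of 10 members passed the adjusted threshold of 0.05 in edgeR's quasi-likelihood test, where 11.1% of the 15764 genes tested did. At an unadjusted p under 0.05 there were 2, Lcn2 and Il6ra, and DESeq2 called 3, Lcn2 and Cxcl5 higher and Il6ra lower. In ADN tumors against normal lungs 0 of 10 were called beside 7.24% of all genes, with 1 at an unadjusted p under 0.05 (Nfkbiz) and 2 by DESeq2 (Il1b and Nfkbiz, both lower). In ADC tumors against normal lungs 1 of 10 was called, Lcn2, beside 4.78% of all genes (0.977% higher and 3.8% lower). Unadjusted p was under 0.05 for 3 (Lcn2, Il6ra and Cxcl1), and DESeq2 called the same 3, Lcn2 and Cxcl1 higher and Il6ra lower. Between ADC and ADN tumors 0 of 10 were called beside 0.00634% of all genes, with 3 at an unadjusted p under 0.05 (Il1b, Nfkbiz and Cxcl1) and 0 by DESeq2. With the mouse as a block, this comparison sets each kind of tumor against its own normal lungs. It compares the kinds directly only within mouse m335. Over all genes tested, DESeq2 called 3349 in tumors, 3003 in ADN, 1861 in ADC and 136 between ADC and ADN. The share of all genes at an unadjusted p under 0.05 was not computed. The median log2 fold change of the members was -0.17 in tumors against normal lungs, -0.43 in ADN, 0.55 in ADC and 1.20 between ADC and ADN. The medians over all genes tested were -0.04, -0.10, -0.01 and 0.05 in the same order. The ADC tumor of mouse m335 weighs on the member medians of ADC tumors against normal lungs and between ADC and ADN. Without it Il1b and Saa3 were at -0.65 and -0.32 in ADC tumors against normal lungs, while Lcn2, Cxcl1 and Cxcl5 stayed higher. Between ADC and ADN, Nfkbiz and Cxcl1 were at 0.46 and 1.43 without it. The member medians without this tumor were not computed. The members were chosen with earlier results of these data known. The comparisons of ADN and of ADC with normal lungs share the 5 normal lungs.

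**Figure D1:**
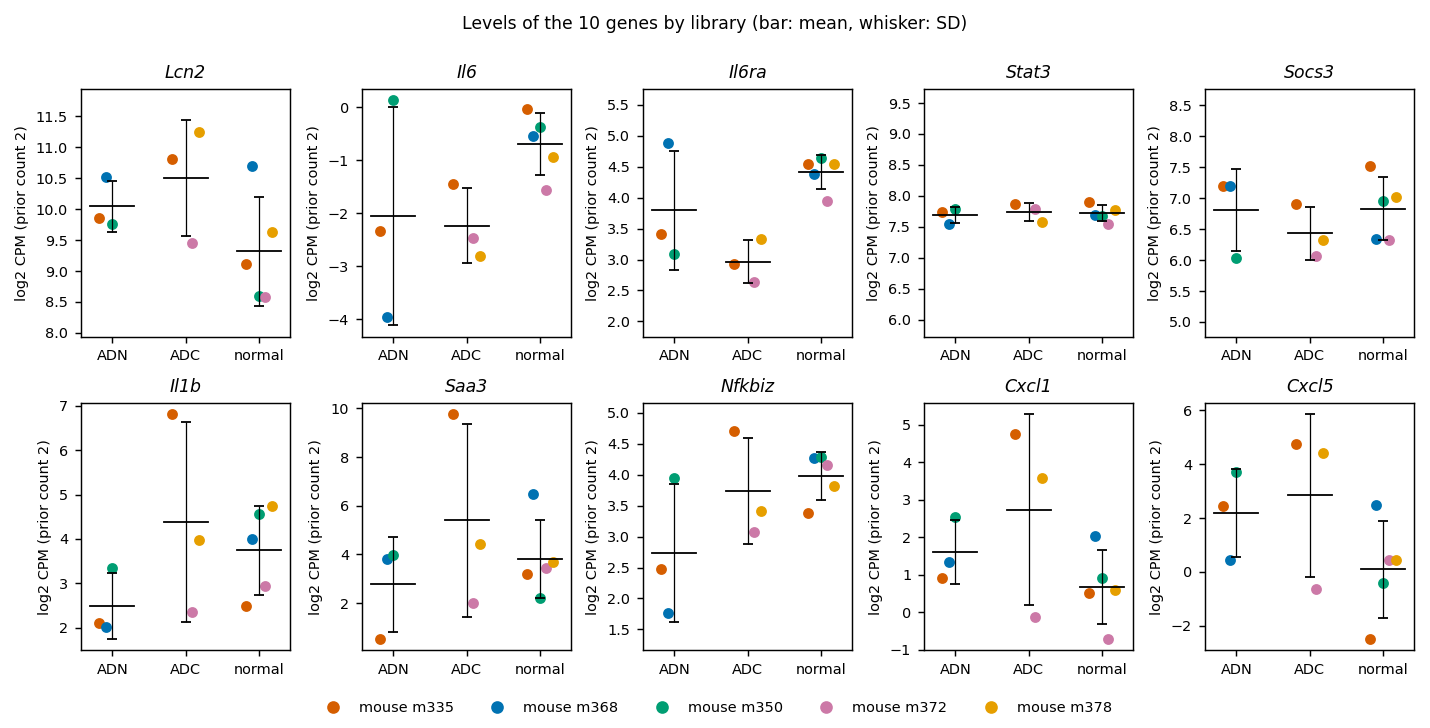
Levels of the 10 members on the log2 CPM scale (prior count 2) in 3 ADN tumors, 3 ADC tumors and 5 normal lungs. Points are libraries colored by mouse, the bar is the group mean, the whisker is the SD, and each panel has its own axis range. The ADC tumor of mouse m335 stands above all other libraries for Il1b, Saa3, Nfkbiz, Cxcl1 and Cxcl5.

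The ligand Il6 (chromosome 5, 30013114 to 30019975, GRCm38) was barely detected. Its level was 0.134, 0 and 1.03 CPM in the ADN tumors of mice m335, m368 and m350, or 4, 0 and 29 counts. In the ADC tumors of mice m335, m372 and m378 it was 0.303, 0.116 and 0.0791 CPM, or 9, 5 and 2 counts. In the normal lungs of mice m335, m368, m350, m372 and m378 it was 0.907, 0.622, 0.712, 0.272 and 0.456 CPM, or 32, 20, 23, 6 and 16 counts. The ADN tumor of mouse m350 had the highest level of any library, while the other 5 tumors lay below their own normal lung. The count of 0 in the ADN tumor of mouse m368 allows up to 0.104 CPM, the value of 3 counts, by counting error only. Tumors averaged 0.277 ± 0.383 CPM (SD, n = 6) and normal lungs 0.594 ± 0.243 CPM (SD, n = 5). The fitted log2 difference of -1.90 ± 0.99 (SE) did not pass edgeR's test (adjusted p = 0.269), and its 95% interval ran from -4.14 to 0.34.

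Il6ra (chromosome 3, 89869324 to 89913196), the ligand-binding receptor chain, stood lower in 5 of 6 tumors than in their own normal lungs. Its level was 10.6, 29.5 and 8.43 CPM in the ADN tumors of mice m335, m368 and m350. In the ADC tumors of mice m335, m372 and m378 it was 7.54, 6.18 and 10 CPM. In the normal lungs of mice m335, m368, m350, m372 and m378 it was 23.4, 20.8, 24.8, 15.4 and 23.4 CPM. Every ADC tumor was below every normal lung, a pattern that 13.1% of all genes tested share, whereas the ADN tumor of mouse m368 was above them all. The log2 difference was -1.04 ± 0.30 (SE) over all tumors, with an adjusted p of 0.0611 in edgeR's test. It was -1.34 ± 0.38 (SE) in ADC tumors (adjusted p = 0.101, 95% interval -2.21 to -0.46) and -0.72 ± 0.39 (SE) in ADN tumors (adjusted p = 0.309). Without the replicate block the ADC difference was -1.45 and passed, with an adjusted p of 0.0389. Without the ADN tumor of mouse m368 the difference over all tumors was -1.37 with an adjusted p of 0.00585, and in ADC tumors -1.44 with 0.0286. Levels of the alveolar macrophage markers varied as well, with sums of 442 to 3285 CPM in tumors (median 1789) and 634 to 9637 CPM in normal lungs (median 1356). Only the normal lung of mouse m368, at 9637 CPM, was above 1422 CPM among the normal lungs. The part of these cells in the Il6ra result was not tested.

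Stat3 (chromosome 11, 100886806 to 100939540), the transcription factor of the pathway, held nearly the same RNA level in every library. It was 214, 187 and 219 CPM in the ADN tumors of mice m335, m368 and m350. In the ADC tumors of mice m335, m372 and m378 it was 233, 220 and 191 CPM. The normal lungs of mice m335, m368, m350, m372 and m378 had 239, 207, 204, 188 and 219 CPM. The groups overlapped throughout, with means of 207 ± 17.3 CPM in ADN tumors, 215 ± 21.7 CPM in ADC tumors (SD, n = 3 each) and 211 ± 19.1 CPM in normal lungs (SD, n = 5). The log2 difference between tumors and normal lungs was -0.03 ± 0.16 (SE; 95% interval -0.38 to 0.33, edgeR adjusted p = 0.942). Between ADC and ADN tumors it was 0.08 ± 0.27 (SE; interval -0.55 to 0.70).

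Socs3 (chromosome 11, 117966087 to 117969366), the feedback inhibitor induced by STAT3, was lower in 5 of 6 tumors than in their own normal lungs, but the group levels overlapped. It was 146, 147 and 65.9 CPM in the ADN tumors of mice m335, m368 and m350, and 119, 67.1 and 80.3 CPM in the ADC tumors of mice m335, m372 and m378. The normal lungs of mice m335, m368, m350, m372 and m378 had 183, 81.2, 124, 79.6 and 130 CPM. Only the ADN tumor of mouse m368 was above its own normal lung, by 0.85 on the log2 scale. The difference over all tumors was -0.31 ± 0.25 (log2, SE), with an adjusted p of 0.487 and an interval of -0.88 to 0.25.

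Lcn2 (chromosome 2, 32384637 to 32387739) encodes lipocalin-2, which binds bacterial siderophores and is also stored in neutrophil granules. Its level was 921, 1466 and 869 CPM in the ADN tumors of mice m335, m368 and m350. In the ADC tumors of mice m335, m372 and m378 it was 1798, 707 and 2436 CPM. The normal lungs of mice m335, m368, m350, m372 and m378 had 556, 1657, 386, 382 and 794 CPM. The normal lung of mouse m368 was above 4 of the 6 tumors, so the groups overlapped, but 5 of 6 tumors were above their own normal lung, the exception being the ADN tumor of mouse m368. The tumors exceeded their own normal lung by 1.69, 0.89 and 1.62 on the log2 scale in the ADC tumors of mice m335, m372 and m378. The values for the ADN tumors of mice m335, m368 and m350 were 0.73, -0.18 and 1.17.

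In ADC tumors Lcn2 rose by 1.39 ± 0.31 (log2, SE; 95% interval 0.68 to 2.1), with an adjusted p of 0.0447 in edgeR's test. The mean levels were 1647 ± 874 CPM in ADC tumors (SD, n = 3) and 755 ± 532 CPM in normal lungs (SD, n = 5). In ADN tumors the difference was 0.53 ± 0.31 (SE; adjusted p = 0.356), and between ADC and ADN tumors 0.86 ± 0.39 (SE; interval -0.03 to 1.76, adjusted p = 0.753). Over all 6 tumors it was 0.98 ± 0.31 (SE; adjusted p = 0.075). The ADC call held under 5 of 16 alternatives, with adjusted p between 0.000289 and 0.236. It was lost under library totals (0.0783), without the replicate block (1.12, 0.201) and without any library other than those of mouse m368. Without the ADC tumor of mouse m335, m372 or m378 the adjusted p was 0.0793, 0.0785 or 0.236, and without the normal lung of mouse m335, m350, m372 or m378 it was 0.123, 0.0829, 0.0787 or 0.236. Without the ADN tumor of mouse m335 or m350 it was 0.103 or 0.0821.

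**Figure D2:**
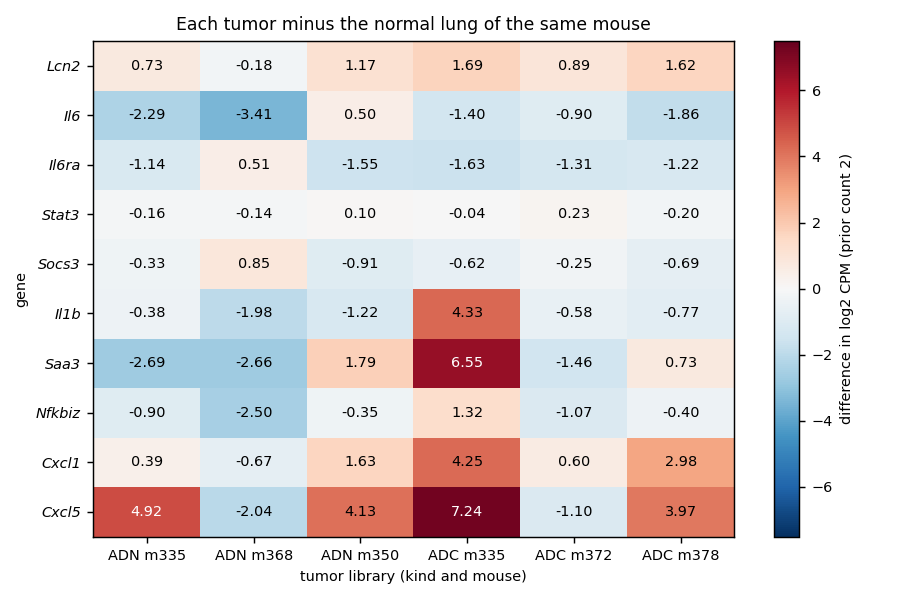
Log2 difference of each tumor from its own normal lung (log2 CPM, prior count 2) for the 10 members, as a heat map with genes down the page and the 3 ADN and 3 ADC tumors across. Lcn2 is higher in 5 of 6 tumors and Il6ra lower in 5 of 6, and the ADC tumor of mouse m335 has its largest values for Saa3 (6.55) and Cxcl5 (7.24).

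Il1b (chromosome 2, 129364578 to 129371139), the secreted cytokine that activates NF-kB through the IL-1 receptor, was high in a single tumor. It was 4.24, 3.97 and 10.1 CPM in the ADN tumors of mice m335, m368 and m350, and 112, 5.05 and 15.6 CPM in the ADC tumors of mice m335, m372 and m378. The normal lungs of mice m335, m368, m350, m372 and m378 had 5.53, 15.8, 23.6, 7.56 and 26.8 CPM. The ADC tumor of mouse m335 was above its own normal lung by 4.33 on the log2 scale, and the other 5 tumors were below theirs. Over all tumors the difference was -0.44 ± 1.0 (SE; edgeR adjusted p = 0.833), and without that tumor it was -0.94 with an adjusted p of 0.0304. In ADC tumors it was 1.09 ± 0.92 (SE; adjusted p = 0.606), and -0.65 without that tumor.

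Saa3 (chromosome 7, 46711998 to 46715676), an acute phase serum amyloid A made locally in inflamed tissue, spanned 1.37 to 869 CPM. It was 1.37, 14.0 and 15.7 CPM in the ADN tumors of mice m335, m368 and m350, and 869, 3.94 and 21.3 CPM in the ADC tumors of mice m335, m372 and m378. The normal lungs of mice m335, m368, m350, m372 and m378 had 9.21, 89.0, 4.49, 11.0 and 12.8 CPM. Within mouse m335 the ADC tumor held the highest level of any library and the ADN tumor the lowest, against the same normal lung. In ADC tumors the difference was 3.04 ± 2.03 (log2, SE; edgeR adjusted p = 0.495), and -0.32 (adjusted p = 0.922) without the ADC tumor of mouse m335. Over all tumors it was 0.57 ± 1.72 (SE; adjusted p = 0.876), and -0.86 without that tumor.

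Nfkbiz (chromosome 16, 55811377 to 55838641) encodes IkB-zeta, a nuclear partner of NF-kB that is needed for induction of a subset of its targets. It was 5.51, 3.34 and 15.4 CPM in the ADN tumors of mice m335, m368 and m350, and 26.0, 8.38 and 10.7 CPM in the ADC tumors of mice m335, m372 and m378. The normal lungs of mice m335, m368, m350, m372 and m378 had 10.3, 19.2, 19.5, 17.7 and 14.1 CPM. Each of the 3 ADN tumors was below its own normal lung, by differences of -0.90, -2.50 and -0.35, although the ADN tumor of mouse m350 was within the normal range. The fitted difference was -1.55 ± 0.56 in ADN tumors (log2, SE; edgeR adjusted p = 0.135) and -0.01 ± 0.51 in ADC tumors (SE; adjusted p = 0.998). Between ADC and ADN tumors it was 1.54 ± 0.65 (SE; adjusted p = 0.743), and 0.46 without the ADC tumor of mouse m335.

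Cxcl1 (chromosome 5, 90891245 to 90893115) and Cxcl5 (chromosome 5, 90759298 to 90761625) encode chemokines that draw neutrophils through the receptor CXCR2. Cxcl1 was 1.80, 2.47 and 5.8 CPM in the ADN tumors of mice m335, m368 and m350, and 27.1, 0.857 and 11.9 CPM in the ADC tumors of mice m335, m372 and m378. In the normal lungs of mice m335, m368, m350, m372 and m378 it was 1.36, 3.98, 1.83, 0.543 and 1.45 CPM. The ADC tumors of mice m335 and m378 were above every normal lung, whereas that of mouse m372 lay among them. The difference in ADC tumors was 2.98 ± 0.74 (log2, SE; edgeR adjusted p = 0.0654), against 0.11 ± 0.75 in ADN tumors (SE; adjusted p = 0.952). Between ADC and ADN tumors it was 2.87 ± 0.93 (SE; adjusted p = 0.727), and 1.43 without the ADC tumor of mouse m335. In ADC tumors it was 3.76 (adjusted p = 0.0323) without the ADC tumor of mouse m372, and 1.96 (adjusted p = 0.266) without that of mouse m335.

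Cxcl5 was 5.31, 1.29 and 12.9 CPM in the ADN tumors of mice m335, m368 and m350, and 26.8, 0.579 and 21.0 CPM in the ADC tumors of mice m335, m372 and m378. In the normal lungs of mice m335, m368, m350, m372 and m378 it was 0.113, 5.5, 0.681, 1.31 and 1.28 CPM. The tumors of mice m335, m350 and m378 were above their own normal lungs by 3.97 to 7.24 on the log2 scale, while those of mice m368 and m372 were below theirs. The groups overlapped, and the difference over all tumors of 2.67 ± 1.71 (SE) did not pass edgeR's test (adjusted p = 0.37). It was 1.62 ± 1.92 (SE; adjusted p = 0.672) in ADN tumors and 3.41 ± 1.83 (SE; adjusted p = 0.384) in ADC tumors. Leaving out 1 library at a time moved it between 1.33 and 3.86 over all tumors (lowest without the normal lung of mouse m335), between -0.07 and 3.33 in ADN tumors (lowest without either library of mouse m350), and between 1.59 and 4.93 in ADC tumors (lowest without the ADC tumor of mouse m335).

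**Figure D3:**
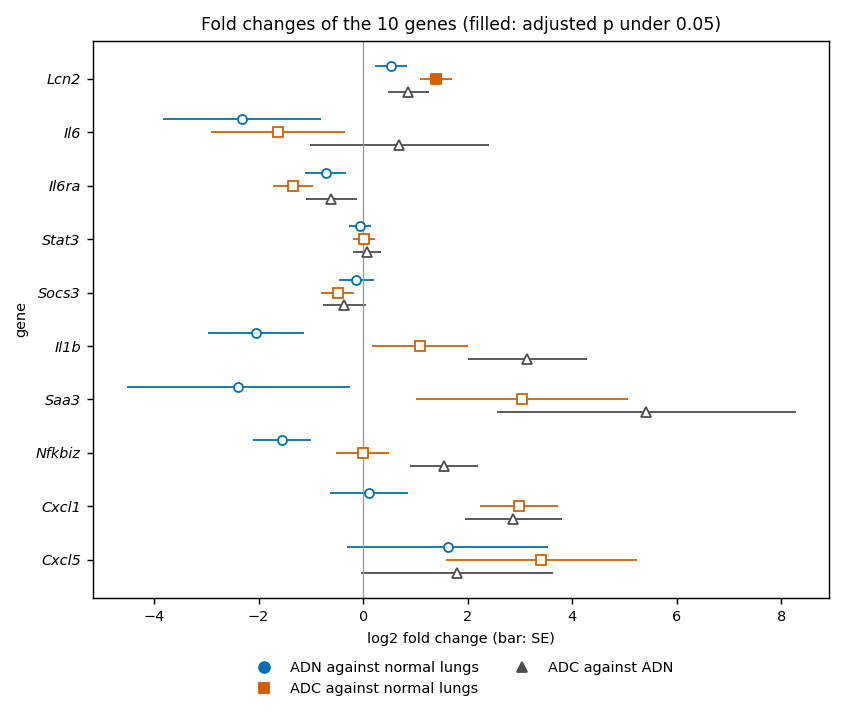
Fitted log2 fold changes of the 10 members with their SE for ADN against normal lungs, ADC against normal lungs and ADC against ADN tumors. Filled symbols mark an adjusted p under 0.05, and the only filled symbol is Lcn2 in ADC tumors, at 1.39.

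Markers of other cell types differed between the libraries, and their part in the member levels was not tested. Neutrophils, which store lipocalin-2 and follow Cxcl1 and Cxcl5, were read from 15 markers. These summed to 437, 212 and 148 CPM in the ADN tumors of mice m335, m368 and m350 and to 499, 26.9 and 435 CPM in the ADC tumors of mice m335, m372 and m378. They summed to 94.8, 233, 199, 93.1 and 549 CPM in the normal lungs of mice m335, m368, m350, m372 and m378. Single genes carry much of these sums: Ltf, the granule protein lactoferrin, which epithelium also makes, reached 371 CPM in the ADN tumor of mouse m335, and Cd177 reached 324 CPM in the ADC tumor of mouse m378. Against the paired normal lung, S100a8 and Csf3r of the same list were lower in 5 of 6 tumors and S100a9 in 6 of 6, so the genes of this list did not move together. Of these markers Ly6g, Camp, Ngp, Elane and Mpo were at 0 in at least 1 library. Among the 12 tested, Cd177 rose while Ngp and S100a9 fell in tumors against normal lungs. S100a9, the abundant calcium-binding protein of neutrophils, was at 1.83 to 41.0 CPM in tumors and 28.0 to 270 CPM in normal lungs. Cd177, which marks neutrophils but is also made by some other cells, was at 9.12 to 324 CPM in tumors and 1.08 to 19.2 CPM in normal lungs.

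The ADC tumor of mouse m335, which carried the highest Il1b, Saa3, Nfkbiz, Cxcl1 and Cxcl5, also had the highest sums of monocyte and other macrophage markers (12 genes), T cell markers and B and plasma cell markers. The monocyte and other macrophage markers summed to 1883 CPM there, against 496 to 877 CPM in the other 5 tumors and 529 to 933 CPM in normal lungs. The T cell markers summed to 694 CPM there, against 31.7 to 82.5 CPM in the other tumors and 104 to 447 CPM in normal lungs. Its lung epithelium markers (10 genes) summed to 32195 CPM, the lowest of any library, against 90027 to 121329 CPM in the other tumors and 35617 to 50609 CPM in normal lungs. That sum is dominated by the surfactant genes, and in this tumor Sftpc and Sftpb were at -1.26 and -0.98 on the log2 scale against its own normal lung. Krt19 and Nkx2-1 were also lower, at -0.36 and -0.49, while Epcam (1.58), Krt18 (1.15), Cdh1 (1.03) and Krt8 (0.63) of the same list were higher than in its own normal lung.

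**Figure D4:**
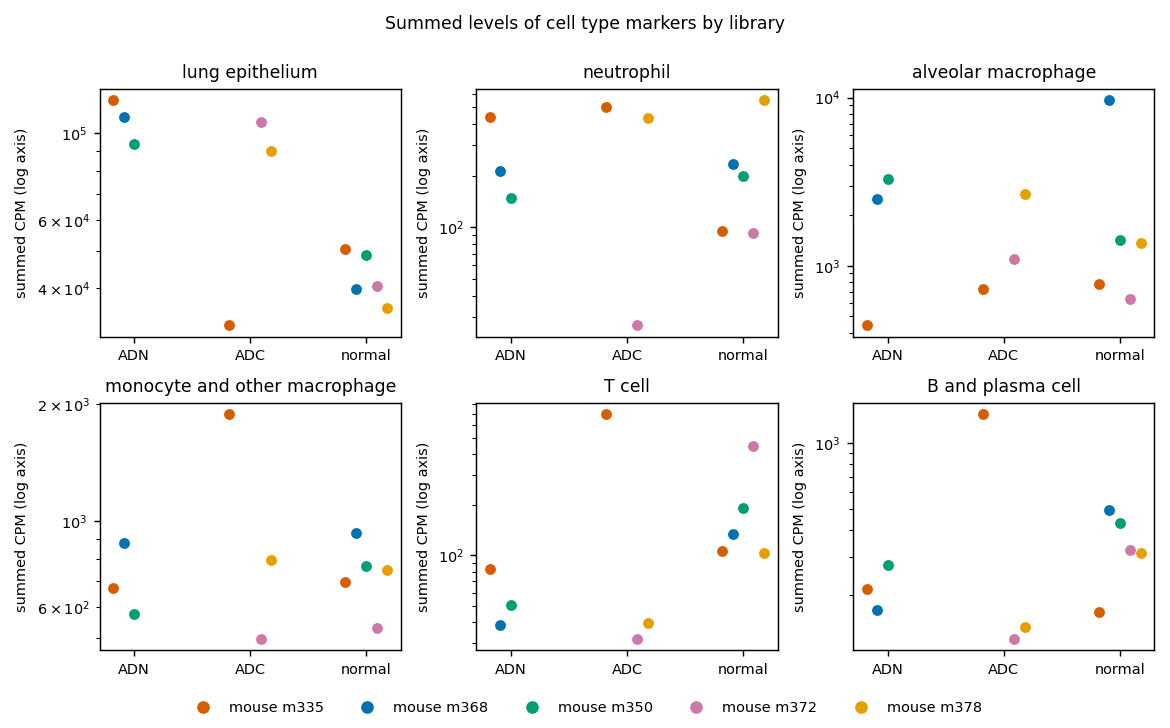
Summed CPM of 6 lists of cell type markers in each library on a log axis, with ADN and ADC tumors left of the normal lungs and points colored by mouse. The ADC tumor of mouse m335 has the highest T cell sum (694 CPM) and the lowest lung epithelium sum (32195 CPM), in which surfactant genes weigh most.

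Around the members, 120 other genes of the pathway were listed, and 108 were tested. In tumors against normal lungs 2 rose (Cxcl15 and Socs2) and 7 fell (Csf1, Il11ra1, Il6st, Lifr, Ppbp, Stat5b and Vegfa), a total of 9, with a median log2 fold change of -0.13. In ADN tumors Socs2 rose and 7 fell (Csf1, Il6st, Lifr, Pim1, Ppbp, Stat5b and Vegfa). In ADC tumors 2 rose (Cxcl3 and Il1rn) and 7 fell (Fga, Fgg, Il6st, Lifr, Ppbp, Stat5b and Vegfa). Without the replicate block, 16 were called in tumors (9 higher and 7 lower) and 14 in ADC tumors (6 higher and 8 lower). DESeq2 called 23 in tumors (11 higher and 12 lower), so the balance of higher and lower calls depended on the fit. Of all 15764 genes, 2257 were called in tumors without the block (895 higher and 1362 lower) and 1517 in ADC tumors (541 higher and 976 lower). DESeq2 called 3349 of them in tumors (1299 higher and 2050 lower). Between ADC and ADN tumors 0 of 108 passed edgeR's test, with 18 at an unadjusted p under 0.05 and 4 by DESeq2 (Fga, Fgg, Il1a and Il1rn). Of all genes tested, 3.45% rose and 7.66% fell in tumors against normal lungs, and 2.58% rose and 4.66% fell in ADN tumors. In ADC tumors 0.977% rose and 3.8% fell.

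The receptor chains of the IL-6 family had the highest share of calls among the lists, with 3 of 6 tested lower in tumors, beside 7.66% of all genes. Il6st, the shared gp130 chain, was at 118 to 146 CPM in ADN tumors, 119 to 164 CPM in ADC tumors and 269 to 360 CPM in normal lungs. Every tumor was below every normal lung, which 7.89% of all genes tested share, and the log2 difference was -1.20 ± 0.17 (SE; edgeR adjusted p = 0.00311). Lifr, the chain that pairs with gp130 for leukemia inhibitory factor, was at 16.2 to 39.3 CPM in ADN tumors, 19.4 to 46.5 CPM in ADC tumors and 66.1 to 103 CPM in normal lungs (-1.57 ± 0.22, SE; adjusted p = 0.00279). The endothelium markers fell beside them, all 8 of 8, with sums of 515 to 960 CPM in tumors and 2657 to 4351 CPM in normal lungs. Sums of other lists were lower in every tumor too: fibroblast markers at 764 to 1368 CPM in tumors and 1490 to 2317 CPM in normal lungs, mesothelium markers at 30.5 to 87.5 CPM in tumors and 168 to 362 CPM in normal lungs, and fat and skeletal muscle markers at 8.25 to 26.7 CPM in tumors and 45 to 620 CPM in normal lungs. The part of these cells in the receptor levels was not tested. Osmr, the oncostatin M receptor chain, was at -0.53 ± 0.19 (SE; adjusted p = 0.119). The calls of Il6st and Lifr held under 11 and 11 of 16 alternatives in ADN tumors, and under 5 and 9 of 16 in ADC tumors. Of the 7 other IL-6 family ligands tested 0 were called over all tumors, with 1 at an unadjusted p under 0.05 and 1 by DESeq2 (Lif). Osm, oncostatin M, was at -0.44 ± 0.55 (SE; adjusted p = 0.677).

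Of 11 Janus kinase and STAT genes 1 was called in tumors, where 11.1% of all genes tested were called. Stat5b, a STAT protein of growth hormone and cytokine signalling, fell by 1.07 on the log2 scale (SE 0.16; edgeR adjusted p = 0.00355), at 25.3 to 52.2 CPM in ADN tumors, 39.5 to 50.8 CPM in ADC tumors and 72.3 to 97.6 CPM in normal lungs. Of 7 negative regulators 1 was called beside the same share of all genes, Socs2, a relative of Socs3 that damps growth hormone signalling. Socs2 rose by 1.27 ± 0.29 (SE; adjusted p = 0.0246) and was at 130 to 387 CPM in ADN tumors, 103 to 147 CPM in ADC tumors and 57.8 to 97.1 CPM in normal lungs. Every tumor was above every normal lung for Socs2, which 3.36% of all genes tested share. In ADN tumors it rose by 1.76 ± 0.26 (SE; adjusted p = 0.0108), a call lost without the ADN tumor of mouse m335 (0.124). Its call over all tumors was lost without either library of mouse m368, m350 or m372 or without the normal lung of mouse m335, with adjusted p of 0.052 to 0.0769.

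Of 23 STAT3 targets and acute phase genes 1 was called in tumors, 2 in ADN tumors and 3 in ADC tumors. The shares of all genes called were 11.1%, 7.24% and 4.78% in the same order. Vegfa, the endothelial growth factor, fell by 1.89 on the log2 scale (SE 0.28; edgeR adjusted p = 0.00331), at 110 to 179 CPM in ADN tumors, 68.7 to 165 CPM in ADC tumors and 356 to 645 CPM in normal lungs. The fibrinogen chains Fga and Fgg were called in ADC tumors at -5.11 ± 0.87 (SE; adjusted p = 0.0208) and -4.70 ± 0.82 (SE; adjusted p = 0.0181). Their levels were low: Fga was at 2.04 to 10.7 CPM in ADN tumors, 0 to 0.751 CPM in ADC tumors and 0 to 35.0 CPM in normal lungs. Against the own normal lung, Fga was at -2.65, 0.00 and -5.43 on the log2 scale in the ADC tumors of mice m335, m372 and m378. Both libraries of mouse m372 had 0 Fga counts, so this pair cannot show a difference in either direction. Fgg was at -3.35, -1.94 and -6.60 in the same tumors. Both calls were lost without either library of mouse m378 (adjusted p = 0.0624 to 0.275), and that of Fga also without either library of mouse m368 (0.0517 and 0.0551) and without the replicate block (0.102). Pim1, a kinase induced by STAT proteins, was lower in ADN tumors (-1.17 ± 0.27, SE; adjusted p = 0.0406), a call that 11 of 16 alternatives lost, among them the fit without the replicate block (0.0942). Haptoglobin (Hp) was at -0.64 ± 0.29 (SE; adjusted p = 0.21) and Lrg1, a leucine-rich glycoprotein of the acute phase, at -0.86 ± 0.26 (SE; adjusted p = 0.068). Saa1 and Saa2, the liver-type relatives of Saa3, and Csf3, the neutrophil growth factor, did not pass the filter.

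Of 16 NF-kB genes and 8 TNF and IL-17 genes 0 were called in any of the 4 comparisons by edgeR. In ADN tumors 4 and 3 of them had an unadjusted p under 0.05, for which the share of all genes was not computed. DESeq2 called 1 (Tnfaip3) and 2 (Ltb and Tnf) there, beside 3003 of all 15764 genes. Nfkbia, the NF-kB inhibitor IkB-alpha, was at -0.73 ± 0.28 (SE; edgeR adjusted p = 0.14) and Tnfaip3, the NF-kB inhibitor A20, at -0.52 ± 0.41 (SE; adjusted p = 0.485) over all tumors. Tnf, which activates NF-kB, was at 0.104 to 1.14 CPM in ADN tumors, 0.880 to 12.6 CPM in ADC tumors and 1.42 to 2.27 CPM in normal lungs, so every ADN tumor was below every normal lung, a pattern of 14.9% of all genes tested. Between ADC and ADN tumors the Tnf difference was 3.54 ± 1.24 (SE; adjusted p = 0.727).

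Of 16 IL-1 genes 1 was called in ADC tumors, beside 4.78% of all genes tested. Il1rn, the secreted antagonist of the IL-1 receptor, rose there by 2.62 ± 0.47 (SE; edgeR adjusted p = 0.0192) and was at -0.09 ± 0.49 in ADN tumors (SE; adjusted p = 0.934). It was at 6.05 to 17.1 CPM in ADN tumors, 20.8 to 75.7 CPM in ADC tumors and 4.44 to 16.0 CPM in normal lungs, so every ADC tumor was above every ADN tumor, as for 5.89% of all genes tested, and above every normal lung, as for 8.68%. The fitted difference between ADC and ADN tumors was 2.71 ± 0.61 (SE) and was not called by edgeR (adjusted p = 0.697), whereas DESeq2 called it. The ADC call was lost without the ADN tumor (0.0599) or normal lung (0.0653) of mouse m335 and without either library of mouse m372 (0.0589 for its ADC tumor and 0.0583 for its normal lung). Il1a, the other IL-1 ligand, was at -0.43 ± 0.91 (SE; adjusted p = 0.822) and the receptor Il1r1 at 0.07 ± 0.20 (SE; adjusted p = 0.869) over all tumors.

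Of 12 chemokine, receptor and growth factor genes 3 were called in tumors, beside 11.1% of all genes tested. Cxcl15, a chemokine of lung epithelium, rose by 1.40 ± 0.30 (SE; edgeR adjusted p = 0.0177), at 6473 to 7824 CPM in ADN tumors, 4384 to 14976 CPM in ADC tumors and 2553 to 3821 CPM in normal lungs. The lung epithelium markers were higher beside it, with 6 of 10 called higher in tumors, and their part was not tested. Its call was lost without either library of mouse m350, m372 or m378, with adjusted p of 0.0654 to 0.0707. Ppbp, a chemokine stored in platelets, fell by 3.88 on the log2 scale (SE 0.61; adjusted p = 0.00467), and Csf1, the macrophage growth factor, by 1.60 (SE 0.30; adjusted p = 0.0108). In ADN tumors the Ppbp call (adjusted p = 0.0485) was lost without the replicate block (0.0541), and in ADC tumors it held under 7 of 16 alternatives. Cxcl3, a close relative of Cxcl1 that may share reads with it, was at 2.47 to 16.0 CPM in ADN tumors, 5.33 to 62.5 CPM in ADC tumors and 0.595 to 3.39 CPM in normal lungs. It rose in ADC tumors by 4.28 ± 0.99 (SE; adjusted p = 0.0497), a call kept under 5 of 16 alternatives. Cxcl2, another such relative, was at 0.90 ± 1.43 (SE; adjusted p = 0.755) and Cxcr2, the receptor of these chemokines, at -1.16 ± 0.43 (SE; adjusted p = 0.128) over all tumors. Slc22a17, a cell surface receptor of lipocalin-2, was at 0.06 ± 0.42 (SE; adjusted p = 0.944).

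**Figure D5:**
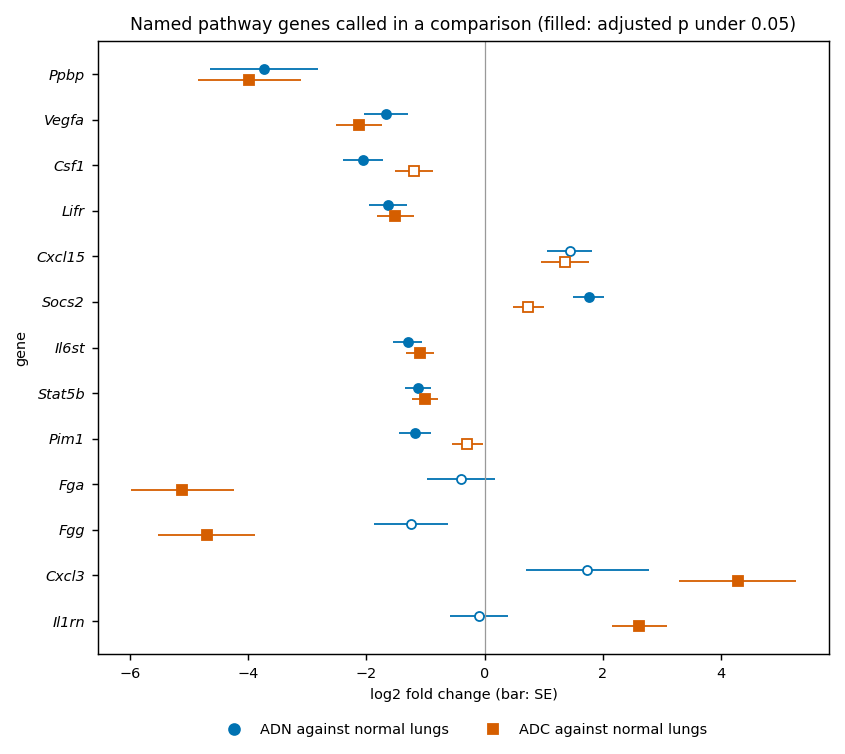
Fitted log2 fold changes with SE of the 13 named pathway genes called in a comparison, with ADN against normal lungs as circles and ADC against normal lungs as squares, filled where the adjusted p was under 0.05. Ppbp, Vegfa, Lifr, Il6st and Stat5b are filled in both, and Cxcl3, Il1rn, Fga and Fgg are filled in ADC tumors.

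The genes with levels most like those of 3 members over the 11 libraries were listed by the Pearson correlation of log2 CPM, as a description. For Lcn2 they were Noxo1 (0.917), Rhou (0.889), Chil1 (0.888), Pglyrp1 (0.845) and Scamp5 (0.842). For Il6 they were Cd244 (0.925), Loxl4 (0.924), Kcnmb4os2 (0.921), Ermard (0.917) and Map3k8 (0.912), on counts as low as those given above. For Saa3 they were Ly6i (0.938), Cklf (0.938), Ccl9 (0.927), Acp5 (0.922) and Vps29 (0.919), where the ADC tumor of mouse m335 weighs most. The libraries share mice and depth, so these values describe these 11 libraries only.

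Nfkbiz has 3 transcript models in the table. Its shortest model took 16.4% of the estimated Nfkbiz counts in all 3 ADN tumors, 14.7%, 37.8% and 64.7% in the ADC tumors of mice m335, m372 and m378, and 19.1% to 66.9% in normal lungs. These shares are estimates of the authors' software from reads that the models partly share. The ADN tumors of mice m335, m368 and m350 had the same share at totals of 165, 96 and 432 counts. That equal value may be the software's own split of shared reads, which was not tested, and it is not read as a constant share of the transcript.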

How the data were processed

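The authors deposited expected counts, estimated reads for each of 36285 RefSeq transcripts in every library, not normalized. The submitters' processing notes name STAR 2.4.1d, Bowtie2 2.1.0, Partek and mm10, and the sources used here do not say which step each did, which annotation release or strand setting was used, or how reads matching several genes were treated. Poly-A libraries were read on an Ion Proton instrument, per the labels' protocols, from RNA of integrity number 7 or more.

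Transcripts were summed by gene symbol to 24515 genes and rounded to whole numbers. Before rounding, 78.4% to 86.2% of the gene sums in each library were whole within 0.01. Totals of 19938822 to 46987587 counts set the counting precision.

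Genes passing filterByExpr (15764) were TMM-scaled and tested with edgeR 4.0.16 (robust quasi-likelihood fit, R 4.3.3), with the mouse as a block. One fit had tumor and normal as groups and another had ADN, ADC and normal. Tests were two-sided, with Benjamini-Hochberg adjustment over all genes tested and a threshold of 0.05. Standard errors (SE) come from the quasi-likelihood F statistic. Intervals of 95% use its degrees of freedom. The test of tumors against normal lungs was also run on simulated counts with a single spread for all genes and no mouse effect. That run does not check the ADN and ADC comparisons or the handling of pairs and single outlying tumors. Named genes were the 10 members, pathway genes called in a comparison (at most 8 for each), 19 ligands, receptors, paralogs and targets next to the members, and the 5 genes most like Lcn2, Il6 and Saa3. The values of 1 pathway gene are not reported here, although counts over the lists include it. Alternatives were size factors, library totals, no filter, DESeq2 1.42.0, no replicate block, and leaving out each library. The members and lists were chosen with earlier results of these data known.

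The pairs come from the mouse identifiers in the labels. Deviations from the group means correlated between a tumor and its own normal lung at -0.0381 to 0.241, and a tumor correlated best with its own normal lung in 2 of 6 cases. Without the replicate block, 1 member was called in ADC tumors against normal lungs, as with it, but the gene was Il6ra and not Lcn2.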

Additional observations from a re-analysis of the deposited data

Results flagged for a closer look

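Among 20 groups of tumor or normal lung values of the 10 members, 6 had a library set apart from the rest of its group by Dixon's test. Its chance rate of about 1 in 20 holds for independent groups of normally distributed values. Here CPM was used without a log and the groups share the same libraries, so the count of 6 cannot be read against that rate. Il6 in tumors was highest in the ADN tumor of mouse m350, at 1.03 CPM, with the next at 0.303 CPM. Il6ra in tumors was highest in the ADN tumor of mouse m368, at 29.5 CPM, with the next at 10.6 CPM. The ADC tumor of mouse m335 stood apart for Il1b, at 112 CPM with the next tumor at 15.6 CPM, and for Saa3, at 869 CPM with the next at 21.3 CPM. The normal lung of mouse m368 stood apart from the other normal lungs for Saa3, at 89.0 CPM with the next at 12.8 CPM, and for Cxcl5, at 5.5 CPM with the next at 1.31 CPM.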

How the results depend on the processing

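The count of genes called in tumors against normal lungs was 1752 (544 higher, 1208 lower), with 3349 by DESeq2, 2257 without the replicate block and 2065 under library totals (358 higher, 1707 lower). Library totals shifted the median over all genes by -0.19 on the log2 scale in the 3 comparisons with normal lungs. ADN tumors gave 1141 (406 higher, 735 lower, against 340 and 1046 under library totals), with 3003 by DESeq2 and 1836 without the block. ADC tumors gave 753, with 1861 by DESeq2 and 1517 without the block. ADC against ADN gave 1, with 5 without a filter, 136 by DESeq2 and 3 without the block. Members called in tumors against normal lungs numbered 1 under library totals and 3 by DESeq2, in ADN tumors 2 by DESeq2, and in ADC tumors 0 under library totals and 3 by DESeq2. Pathway genes called numbered 23 by DESeq2 and 16 without the block in tumors, 26 by DESeq2 in ADN tumors, 14 without the block in ADC tumors, and 4 by DESeq2 between ADC and ADN. Leaving out 1 library at a time gave 911 to 3396 genes in tumors (3396 without the ADC tumor of mouse m335), 0 to 1998 in ADN (0 without the ADN tumor of mouse m335), 71 to 1071 in ADC and 0 to 3 between them. Members then numbered 0 to 2 in tumors and 0 to 2 in ADC tumors, and pathway genes 6 to 25, 0 to 15 and 1 to 8 in tumors, ADN and ADC. Signs turned without the block for Il1b in tumors (0.67) and Il6 between ADC and ADN (-1.20), and under library totals for Cxcl1 in ADN (-0.09) and Stat3 in ADC (-0.17). Over the libraries left out, signs turned for Stat3 (tumors -0.09 to 0.02, ADC -0.09 to 0.11, ADC against ADN 0.00 to 0.16), Il1b (tumors -1.14 to 0.02, ADC -0.65 to 2.09), Saa3 (tumors -0.86 to 1.5, ADC -0.32 to 5.06), Socs3 (ADN -0.56 to 0.24), Cxcl1 (ADN -0.62 to 0.56), Cxcl5 (ADN -0.07 to 3.33, ADC against ADN -1.42 to 2.67), Nfkbiz (ADC -0.71 to 0.46) and Il6 (ADC against ADN -0.35 to 1.88). The cause of these changes was not tested. Outside mouse m335, leaving out 1 library also takes its pair out of the blocked difference, so the 2 libraries of a pair give nearly the same alternative. Leaving out the normal lung of mouse m335 leaves both of its tumors without their own normal lung. The 16 alternatives are therefore not independent of each other. Without the block the calls of named genes that were lost are those of Lcn2, Ppbp, Pim1 and Fga given with the results, and among the members Il6ra gained one. Calls of Ppbp, Vegfa, Csf1, Lifr, Il6st and Stat5b over all tumors held in all 16 alternatives, but in ADN tumors those of Csf1, Vegfa and Ppbp held in 12, 9 and 6, and in ADC tumors that of Vegfa in 14. Il6, at 0 to 32 counts per library, is limited by its depth.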
